A study of Mus musculus with 83 samples.

Results

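The Rab genes encode the largest family of small GTPases that direct membrane traffic. The genes described here were all rows of the raw count table whose mouse symbol is Rab, a number and at most a letter from a to d, which gave 59 of 48795 genes. Their RNA was measured in 83 pools of neurons from the frontal cortex of male C57BL/6 mice. Pyramidal cells (PYC, stained for Slc17a7) and interneurons positive for Pvalb (PV), Sst (SST) or Vip (VIP) were picked by laser from sections 14 µm thick, 125 cells to a pool. Young mice were 2 months old, with 9 PYC, 8 PV, 9 SST and 9 VIP pools, and old mice were 22 months old, with 12 pools of each type. No group carries a transgene or a treatment, per the labels.

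A Rab protein is a switch. Exchange factors load it with GTP on a given membrane, effectors bind the loaded form and move, tether or dock the vesicle, and GTPase-activating proteins turn it off. Each Rab marks its own compartment, so the set of Rab genes in a neuron follows the routes its membranes take. In neurons the best known are the Rab3 proteins, which sit on synaptic vesicles and on vesicles filled with neuropeptide and regulate their release with Rab27. Others serve transport from the endoplasmic reticulum through the Golgi (Rab1, Rab2, Rab6), early endosomes (Rab5), recycling (Rab4, Rab11), the route from the Golgi to the cell surface (Rab8, Rab10) and late endosomes and lysosomes (Rab7). The 59 genes were sorted by such a role into vesicle release (8), endoplasmic reticulum and Golgi (14), early endosome (8), recycling (8), post-Golgi traffic (5), late endosome, lysosome and autophagy (10) and other (6).

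All 4 Rab3 paralogues differed among the neuron types, so the sequence before a RefSeq start site of each is shown here for comparison. RefSeq promoter windows of build GRCm38.p6, which run from 250 bases before to 50 bases after a start site, matched 48 of the 59 genes. The runs below are the part of each window that overlaps no annotated exon, read 5′ to 3′ on the strand of the gene. Rab3a stands on chr8:70754453-70754678 (+), Rab3b on chr4:108878820-108879062 (+), Rab3c on chr13:110280207-110280456 (-) and Rab3d on chr9:21918193-21918433 (-). The run of Rab3c precedes an internal start, 790 bases from the 5′ end of the annotated gene (chr13:110054187-110280996), and so lies inside that gene. Capitals mark 4 motifs on either strand, which may overlap each other. The GC box, a site for Sp1-like factors, was searched as GGGCGG. The core of the cAMP response element, called the CRE core here, was searched as TGACG. The CCAAT box, which binds NF-Y, was searched by those letters. For the TATA box of the basal machinery the letters were TATAAA.
Rab3a: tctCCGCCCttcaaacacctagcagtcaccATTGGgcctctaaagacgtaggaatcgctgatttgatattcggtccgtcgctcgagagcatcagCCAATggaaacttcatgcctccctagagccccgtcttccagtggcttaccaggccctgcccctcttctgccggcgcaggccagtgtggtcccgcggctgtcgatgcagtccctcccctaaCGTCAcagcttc
Rab3b: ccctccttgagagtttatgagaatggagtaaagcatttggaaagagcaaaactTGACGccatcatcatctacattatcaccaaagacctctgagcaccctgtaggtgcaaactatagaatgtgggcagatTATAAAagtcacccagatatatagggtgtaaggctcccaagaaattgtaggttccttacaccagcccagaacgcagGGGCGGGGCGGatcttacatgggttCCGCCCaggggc
Rab3c: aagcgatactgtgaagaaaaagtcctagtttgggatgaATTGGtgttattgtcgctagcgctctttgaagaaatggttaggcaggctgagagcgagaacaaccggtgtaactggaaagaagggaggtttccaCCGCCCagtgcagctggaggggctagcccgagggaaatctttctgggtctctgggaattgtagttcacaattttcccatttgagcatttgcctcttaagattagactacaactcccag
Rab3d: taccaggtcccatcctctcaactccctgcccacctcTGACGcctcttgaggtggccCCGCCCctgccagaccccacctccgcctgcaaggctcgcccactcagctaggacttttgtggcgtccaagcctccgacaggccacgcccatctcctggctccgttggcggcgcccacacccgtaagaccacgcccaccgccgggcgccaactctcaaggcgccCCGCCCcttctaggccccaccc

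Of the 4 printed runs only that of Rab3b holds a TATA box, in 1 copy, beside 3 GC boxes and 1 CRE core. The run of Rab3a holds 2 CCAAT boxes, 1 GC box and 1 CRE core. That of Rab3c holds 1 GC box and 1 CCAAT box, and that of Rab3d 2 GC boxes and 1 CRE core. The E box CACGTG was searched too and is in none of the 4 runs. Base composition differs as widely, with 69.3% G and C in the run of Rab3d, 58.8% in that of Rab3a, 48.1% in that of Rab3b and 47.6% in that of Rab3c. Over the whole 300-base windows, the TATA box is present in 4 of 48 Rab windows (8.3%) and in 13.6% of all 32851 windows in the RefSeq table. The GC box is in 70.8% of the Rab windows and 35.7% of all windows, the CRE core in 52.1% and 20.8%, the CCAAT box in 47.9% and 37.4%, and the E box in 10.4% and 7.2%. The sets are unlike, since each Rab gene, all protein coding, entered by 1 window, the nearest to its annotated 5′ end. All windows were taken without that choice and without a limit to coding genes. The median content of G and C was 61.7% in the Rab windows and 52.7% in all windows, which moves with such counts, and these matches are letters in a window and no measure of binding.

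The smallest library held 1.46 M counts and the largest 27.2 M (M, mega), and the median total was 6.99 M. The marker lists followed the labels: summed pyramidal markers reached 3693 CPM (counts scaled to a library total of 1 M) or more on average in both PYC groups, and summed pan-GABAergic markers at least 2318 CPM in each interneuron group against 234.7 CPM or less in PYC. The pools were not pure, since VIP pools held pyramidal markers at 3077 and 3211 CPM in old and young and PV pools at 1753 and 1469 CPM, and 12 astrocyte markers summed to between 2167 and 3521 CPM in every group. In 6 libraries under 3% of counts were mitochondrial, and in 2 old VIP libraries, numbers 9 and 11, Sst was above 300 CPM.

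Rab3a and Rab6b were the leading Rab RNAs of these neurons once the counts were divided by gene length. On that scale, CPM per kb of annotated exon, Rab3a reached 189 ± 51.9 (SD, n = 83 libraries), and Rab6b, a brain form of the Golgi protein Rab6, 140.5 ± 30.6. Rab2a (69.1), Rab6a (63.8), Rab7 (41.4), Rab3c (39.8), Rab15 (32.3) and Rab12 (30.4) came next. Rab2a and Rab6a, and likewise Rab7, Rab3c, Rab15 and Rab12, differed from their neighbour in that order by less than the SD over libraries (12.4 to 22.7). By CPM, without regard to length, Rab6b (706.8) came first, followed by Rab3c (479.7) and Rab3a (421.4). Of the 59 genes, 25 had a count in every library. At the other end, 13 genes had no count in 52 to 81 of the 83 libraries and a mean of at most 1.65 CPM, and these were not tested: Rab13, Rab17, Rab19, Rab20, Rab25, Rab29, Rab32, Rab38, Rab39, Rab42, Rab43, Rab44 and Rab7b. Several of them are known from other tissues, such as Rab25 and Rab17 of epithelia and Rab38 and Rab32 of pigment cells. Rab43 shares 4164 of its 5526 exonic bases with Gm45140 on the same strand, and how reads of such bases were counted is not stated. The summed level of all Rab genes was 4023 ± 290 CPM in SST (n = 21), 3982 ± 233 in PV (n = 20), 3540 ± 315 in PYC (n = 21) and 3299 ± 339 in VIP (n = 21). The vesicle release genes alone summed to 1381 ± 168 CPM in SST, 1255 ± 198 in PV, 882 ± 187 in VIP and 851 ± 110 in PYC.

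The first question was which Rab genes differ among the 4 neuron types. A gene was tested where its average level was about 2 CPM or more. Of 46 genes tested, 10 differed (21.7%), against 22.6% of all 15999 genes tested, by edgeR's quasi-likelihood F-test at an adjusted p under 0.05, so the family as a whole did not stand out. The 10 were spread unevenly over the roles. These roles were assigned with earlier results of these data known, so the spread is described and was not tested. Of the 8 vesicle release genes, 7 were called (Rab3a, Rab3b, Rab3c, Rab3d, Rab26, Rab27b and Rab37), and of the 38 tested genes of all other roles, 3 were (Rab6b, Rab15 and Rab30). Among genes with a count in at least 80% of libraries, where the test is less troubled by zeros, 9 of 39 Rab genes were called (23.1%) against 27.7% of all genes. Taken by type against the mean of the other 3, PYC had 3 Rab genes higher (6.75% of all genes were) and 5 lower (5.19%), and PV had 5 higher (7.33%) and 3 lower (9.14%). SST had 3 higher (4.14%) and 0 lower (2.11%), and VIP 0 higher (5.88%) and 5 lower (3.75%). At an unadjusted p under 0.05, Rab6b was lower in SST and Rab3d higher in VIP by edgeR, and DESeq2 and limma-voom also called Rab6b in SST and no gene as higher in VIP. Some mice gave pools of several types, and since no label names the mouse of a pool, the p-values treat all pools as independent.

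**Figure D1:**
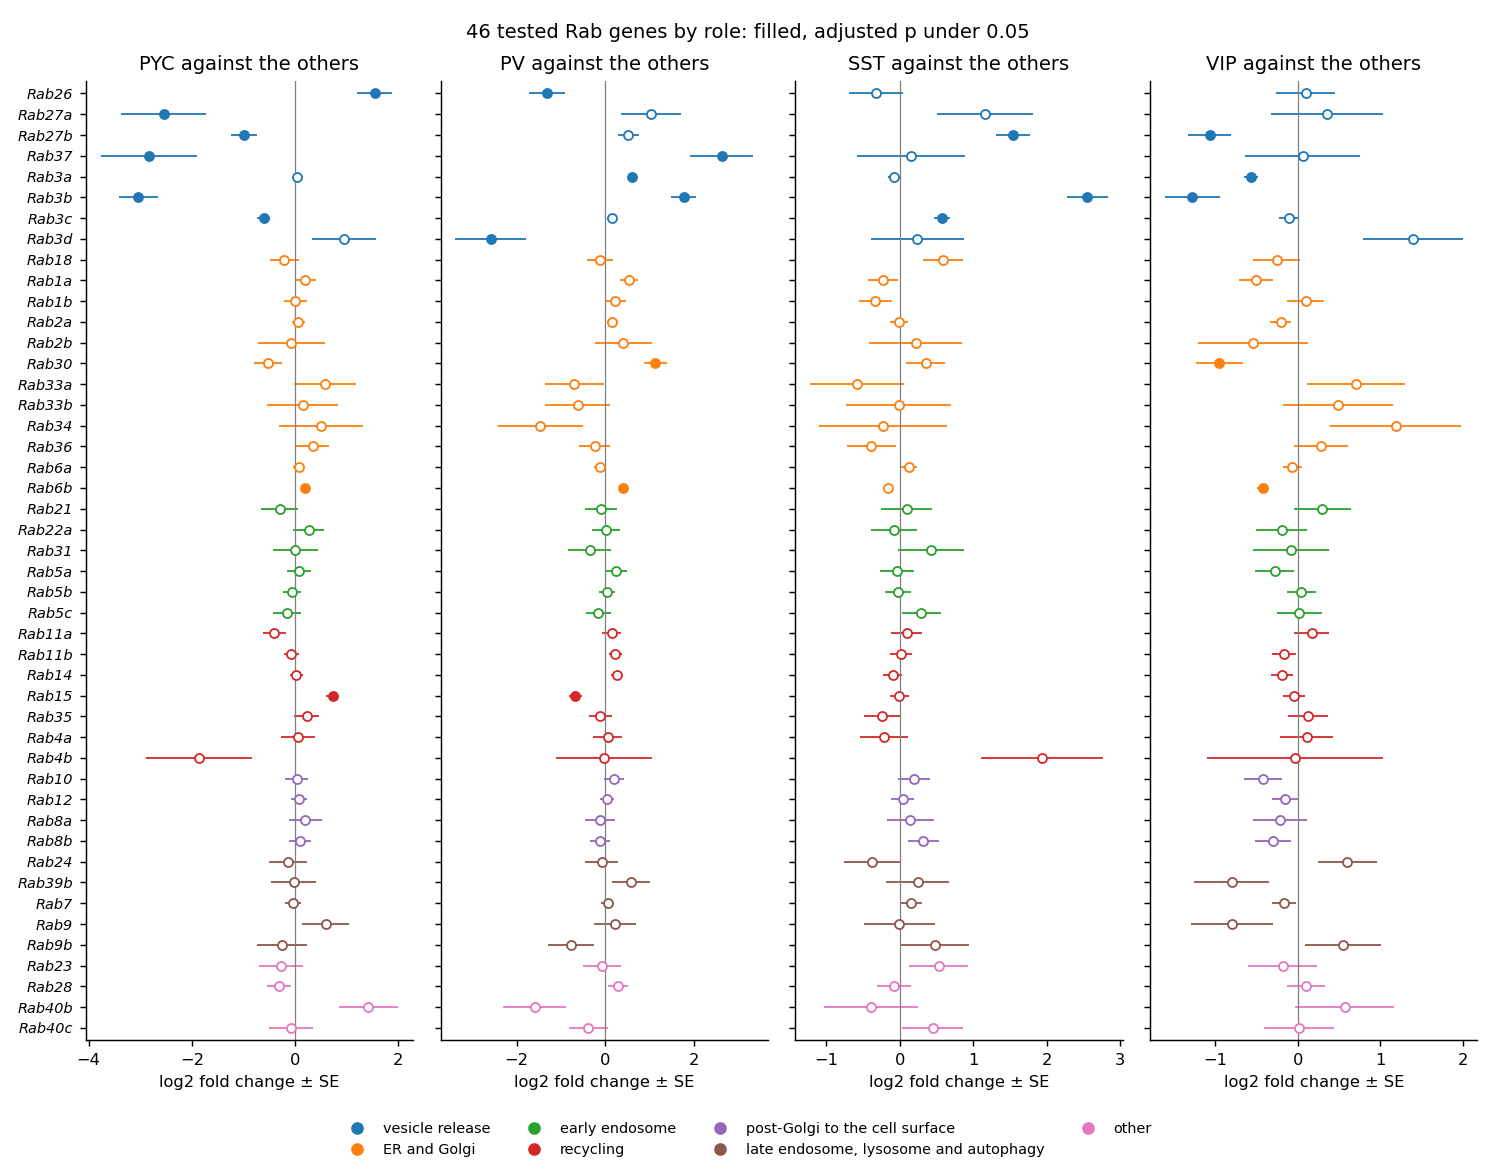
The log2 fold change (± SE) of each of the 46 tested Rab genes in 1 neuron type against the mean of the other 3, grouped and coloured by role, with filled points where the adjusted p was under 0.05. Filled points lie mainly in the vesicle release group at the top, with Rab3b at -3.04 in PYC and 2.55 in SST, while the early endosome, post-Golgi and late endosome groups hold none.

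Rab3b was the most divided gene of the family. Its product, a Rab3 form that binds the same release machinery as Rab3a, is also found on secretory granules of pituitary and other neuroendocrine cells. In PYC its level ran from 0.277 to 28.1 CPM with a median of 4.98 (n = 21). PV values ran from 64.2 to 203.5 with a median of 117.6 (n = 20), SST values from 77.8 to 374.1 with a median of 179 (n = 21), and VIP values from 0.239 to 142.6 with a median of 22.5 (n = 21). Every one of the 20 PV and 21 SST libraries was above the highest PYC library, and the VIP libraries reached from the PYC range into that of PV. Against the mean of the other types Rab3b was lower in PYC (log2 fold change -3.04 ± 0.38 SE, adjusted p = 7.24e-10) and VIP (-1.28 ± 0.33, adjusted p = 0.00518) and higher in PV (1.77 ± 0.29, adjusted p = 1.06e-06) and SST (2.55 ± 0.28, adjusted p = 4.06e-11), by edgeR. In a pool, fewer cells of a type and less RNA per cell cannot be told apart. The 2 old VIP libraries with high Sst held the highest Rab3b of their type, 81.8 and 142.6 CPM, and without them the VIP difference was -1.66 (adjusted p = 0.000184). With old libraries alone the VIP difference was -0.59 and did not pass (adjusted p = 0.591), and with young ones alone it was -1.96 (adjusted p = 0.0243). Rab3b overlaps an antisense gene, 8030443G20Rik, over 317 exonic bases, and the strand setting of the counts is not given.

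Rab3a, the main Rab3 of brain synapses, was present in all types and differed far less. Its median was 533.8 CPM in PV (range 399.4 to 795.5), 402.6 in PYC (329.6 to 615.5), 386.1 in SST (309.6 to 616.8) and 304.8 in VIP (160.9 to 489). The ranges of all types overlapped, though 17 of 20 PV libraries were above the highest VIP library. It was higher in PV (log2 fold change 0.60 ± 0.08 SE, adjusted p = 1.37e-09) and lower in VIP (-0.57 ± 0.08, adjusted p = 9.13e-08), and in PYC and SST its differences of 0.04 and -0.08 did not pass. Rab3c, a close relative on the same vesicles, followed another order. It had a median of 693.1 CPM in SST (294.3 to 893.1), 488.2 in PV (266.1 to 1089), 452.5 in VIP (173.9 to 718.7) and 346.4 in PYC (126.4 to 475.8). SST libraries were above every PYC library in 18 of 21 cases, and Rab3c was higher in SST (0.57 ± 0.11, adjusted p = 6.66e-05) and lower in PYC (-0.61 ± 0.12, adjusted p = 3.52e-05). Rab3d, best known from exocrine glands and mast cells, was the rarest paralogue over all libraries, though in PYC its mean of 12.8 CPM stood beside 10.03 for Rab3b. It had no count in 14 of 20 PV libraries, where its highest value was 18.2 CPM, and medians of 7.74 in PYC, 5.72 in SST and 14.99 in VIP. It was lower in PV (-2.58 ± 0.80, adjusted p = 0.0137), a fitted value that depends on the prior count because of the zeros and that did not pass in old (adjusted p = 0.159) or young libraries alone (0.152).

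The balance among the Rab3 paralogues therefore differed by type. Per kb, Rab3a made up 84.5% ± 3.5 (SD) of the family's CPM in PYC (n = 21), 76.7% ± 5.4 in PV (n = 20), 73.6% ± 7.4 in VIP (n = 21) and 63.0% ± 4.9 in SST (n = 21). The size of such a share depends on the annotated exon length, 2226 bases for Rab3a and 12049 for Rab3c, whichever transcripts were present. By CPM alone mean Rab3c was above Rab3a in SST (643 against 408.9) and VIP (451.6 against 318.6). It was below Rab3a in PYC and PV. Rab3b made up 1.30% ± 1.30 in PYC, 3.83% ± 3.49 in VIP, 10.4% ± 3.1 in PV and 17.6% ± 4.9 in SST. The lowest SST share of Rab3b, 9.15%, and the lowest PV share, 5.13%, were above the highest PYC share of 3.86%. Rab3c held 12.9% in PYC, 12.7% in PV, 18.6% in SST and 20.4% in VIP. By age, Rab3b held 17.4% ± 6.6 in young SST (n = 9) and 17.8% ± 3.5 in old SST (n = 12), and 1.87% ± 1.49 in young PYC and 0.874% (highest 3.35%) in old PYC. In VIP it held 2.62% ± 2.01 in the young and 4.74% ± 4.14 in the old, which include the 2 libraries with high Sst, and in PV 9.55% ± 3.10 and 10.97% ± 3.16.

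**Figure D2:**
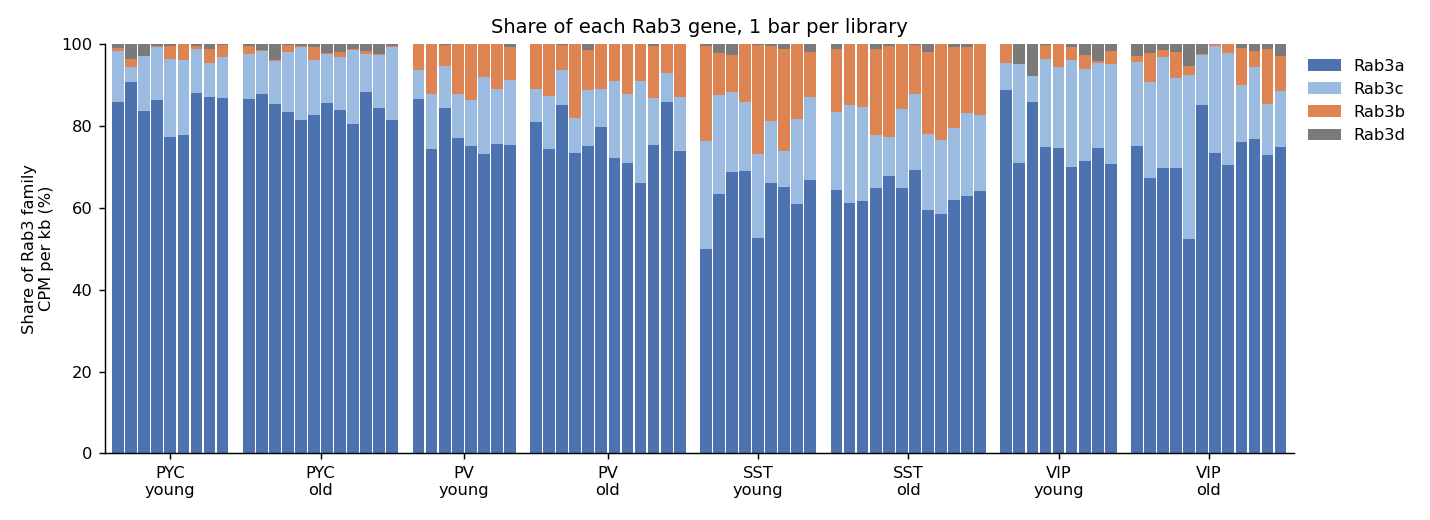
Share of each Rab3 gene in the summed Rab3 CPM per kb, in percent, with 1 stacked bar per library ordered by type and age. The orange Rab3b segment averages 17.6% in SST and 10.4% in PV and is 3.86% or less in every PYC library.

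The Rab27 pair, which tethers secretory granules and large vesicles to the plasma membrane, followed the order of Rab3b in its b form. Rab27b had a median of 101.2 CPM in SST (40.3 to 184.6), 56.0 in PV (18.3 to 125.8), 27.3 in VIP (0.559 to 65.8) and 21.3 in PYC (0 to 63.2). All 21 SST libraries were above the medians of PYC and VIP, and 16 were above the highest library of each. Rab27b was higher in SST (log2 fold change 1.54 ± 0.23 SE, adjusted p = 9.03e-08) and lower in PYC (-0.99 ± 0.26, adjusted p = 0.0034) and VIP (-1.07 ± 0.26, adjusted p = 0.00201), while PV at 0.52 ± 0.24 did not pass. The call of Rab27b in PYC was lost in young libraries alone (adjusted p = 0.492), and that in VIP in old ones (0.251) and with limma-voom (0.0631). Rab27a was sparse, with no count in 23 libraries, 14 of them PYC. Its test over the 4 types did not pass (edgeR, adjusted p = 0.079). The contrast for PYC alone did (-2.54 ± 0.82, adjusted p = 0.0254), but lost its call without the 6 libraries of low mitochondrial content (adjusted p = 0.0597), in old libraries alone (0.363) and in young ones alone (0.18). Per kb, Rab27b held 86.9% of the pair in PYC and between 68.6% and 75.5% in the other types.

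Rab26 and Rab37, which also belong to regulated secretion, went opposite ways. Rab26, linked to synaptic vesicles and their autophagy, had a median of 44.7 CPM in PYC (11.1 to 92.5), 20.4 in VIP (0 to 61.2), 16.5 in SST (0.620 to 56.7) and 5.56 in PV (0.316 to 47.4). All 21 PYC libraries were above the PV median, and 13 of 20 PV libraries were below the lowest PYC library. Rab26 was higher in PYC (log2 fold change 1.54 ± 0.34 SE, adjusted p = 0.000297) and lower in PV (-1.32 ± 0.41, adjusted p = 0.0139). With young libraries alone neither passed (1.04, adjusted p = 0.427, and -1.16, adjusted p = 0.397). Its exons overlap those of Traf7 on the same strand over 267 bases. Rab37, known from secretory granules of mast cells, had a count in 19 of 20 PV libraries, with a median of 13.6 CPM and a highest value of 48.4, and no count in 14 of 21 PYC libraries. Rab37 was higher in PV (2.62 ± 0.71, adjusted p = 0.00363) and lower in PYC (-2.83 ± 0.93, adjusted p = 0.0291), and these fitted folds depend on the prior count. In libraries of 1 age alone none of the 4 values of Rab37 passed (adjusted p of 0.0531 to 0.334). In VIP 11 of 21 libraries had no count of Rab37, while 1 old VIP library held the highest value of all, 51.4 CPM.

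**Figure D3:**
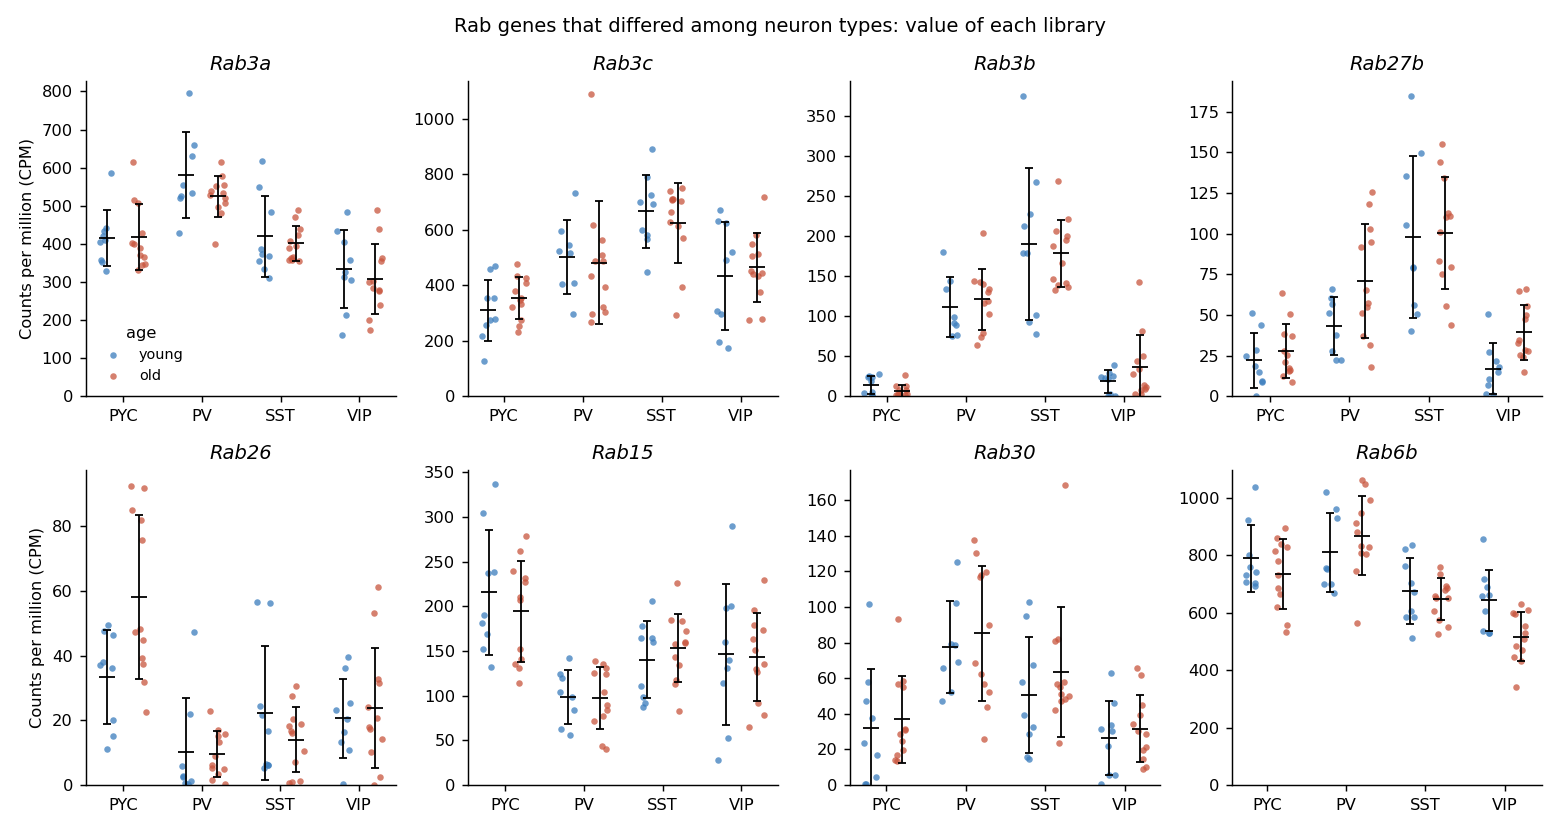
CPM of 8 of the 10 Rab genes that differed among the neuron types, with 1 point per library by type and age and black bars for the mean ± SD of each group. Every PV and SST point of Rab3b lies above the highest PYC point at 28.1 CPM, and the young and old points of a type overlap in every panel.

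Outside vesicle release, 3 genes differed. Rab15, an endosomal Rab of early and recycling compartments found mainly in neural tissue, had a median of 207.1 CPM in PYC (114.2 to 337.6), 158.8 in SST (82.95 to 225.9), 140 in VIP (28.5 to 289.9) and 101.3 in PV (40.2 to 142.6). All 21 PYC libraries were above the PV median and 16 above the highest PV library. Rab15 was higher in PYC (log2 fold change 0.73 ± 0.12 SE, adjusted p = 1.99e-06) and lower in PV (-0.67 ± 0.14, adjusted p = 7.64e-05). Like Rab26 it was highest where the summed pyramidal markers were highest, in PYC, and lowest where they were lowest, in PV; the part of pyramidal RNA in these differences was not tested. Rab30, a Golgi Rab, had medians of 73.9 CPM in PV, 51.0 in SST, 30.1 in VIP and 28.4 in PYC, with ranges that overlapped. It was higher in PV (1.12 ± 0.26, adjusted p = 0.000528) and lower in VIP (-0.95 ± 0.29, adjusted p = 0.0176), the latter call being lost with limma-voom (adjusted p = 0.0658) and within each age (0.0525 and 0.385). In young libraries alone the PV calls of Rab15 (adjusted p = 0.0823), Rab30 (0.141) and Rab6b (0.114) and the VIP call of Rab6b (0.108) did not pass either. Rab6b had medians of 830.1 CPM in PV, 743 in PYC, 659.4 in SST and 553.1 in VIP. It was higher in PV (0.40 ± 0.07, adjusted p = 1.06e-06) and lower in VIP (-0.43 ± 0.07, adjusted p = 7.44e-07), and its small difference in PYC (0.19 ± 0.07, adjusted p = 0.0384) lost its call in 6 of the alternatives. Its paralogue Rab6a, which is found in most tissues, had mean levels of 215.4 to 259.4 CPM and did not pass (edgeR, adjusted p = 0.733); 708 of its exonic bases overlap Mrpl48 on the other strand.

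No gene of the endosomal, lysosomal and post-Golgi groups other than Rab15 was called. None of the 6 tested early endosome genes, the 4 post-Golgi genes, the 5 late endosome, lysosome and autophagy genes or the 4 of other roles passed over the 4 types, against 22.6% of all genes (edgeR; by unadjusted p under 0.05, Rab40b alone of these did, p = 0.0357). Rab5a, Rab5b and Rab5c, which organise the early endosome, had type means of 50.7 to 64.4, 82.2 to 85.1 and 36.9 to 50.2 CPM. For Rab5b the difference of any type from the others was between -0.06 and 0.04 on the log2 scale, with an SE of 0.18. Rab7, the Rab of late endosomes and lysosomes, had type means of 101.4 to 119.6 CPM and differences of at most 0.17 in size with an SE of 0.15. Rab11a and Rab11b of the recycling endosome had means of 39.6 to 58.1 and 90.3 to 105.1 CPM, and Rab8a and Rab8b of post-Golgi traffic 21.7 to 27.04 and 46.5 to 61.3 CPM. Among the 12 tested genes with no call and a mean of at least 50 CPM, the difference of a type from the others was at most 0.53 in size, which was Rab1a in PV (0.53 ± 0.20). Rab1a, which acts between the endoplasmic reticulum and the Golgi, came close to passing over the 4 types (edgeR, adjusted p = 0.0527) and did so under 4 alternatives. For the less abundant genes such a difference was not always detectable, as for Rab4b, at 1.29 CPM in PV and 3.80 in SST, where the SE was 0.83 or more and which shares 1280 exonic bases with the read-through gene Gm21983.

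The genes that switch, escort or read out Rab proteins were described from 5 lists, in which 29 of 107 tested genes differed among the types. None of the 7 escorts and prenylation genes passed (edgeR, also none by unadjusted p under 0.05), against 22.6% of all genes. Of 33 exchange factors 8 were called, of 31 GTPase-activating proteins 8, and of 33 effectors 10. Among exchange factors, Dennd2a averaged 81.5 ± 35.8 CPM in VIP (n = 21) and 11.4 ± 11.3 in PV (n = 20), and was higher in VIP (log2 fold change 2.16 ± 0.30 SE, adjusted p = 9.55e-09) and lower in PV (-1.53 ± 0.37). St5 was higher in PV (1.82 ± 0.36), at 43.3 CPM against 11.2 to 15.6 in the other types. Rin1 (1.14 ± 0.34) and the sparse Rin3 (2.59 ± 0.83), both exchange factors for Rab5, were higher in PYC. Madd, the exchange factor of Rab3 and Rab27, was slightly higher in PV (0.24 ± 0.09, adjusted p = 0.0432) and lower in SST (-0.30 ± 0.09, adjusted p = 0.0236).

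Of the proteins that end the signal, Usp6nl, which acts on Rab5, averaged 72.3 ± 21.9 CPM in PV and 15.9 to 22.0 in the other types and was higher in PV (log2 fold change 1.99 ± 0.31 SE, adjusted p = 1.8e-07). Tbc1d4, known for its part in insulin-driven glucose transport, was higher in PV (1.41 ± 0.40) and lower in PYC (-1.69 ± 0.47). Among effectors, rabphilin (Rph3a), which binds loaded Rab3 and Rab27 on synaptic vesicles, was at 320.3 ± 84.2 CPM in PV and at 585.3 to 706.9 in the other types. It was lower in PV (-1.01 ± 0.11, adjusted p = 3.38e-14) and higher in PYC (0.45 ± 0.09) and VIP (0.47 ± 0.09), so that PV pools had the highest Rab3a and the lowest Rph3a of the 4 types. Rims1, a Rab3 effector of the active zone, was lower in PV (-0.38 ± 0.12, adjusted p = 0.02), though its test over the 4 types did not pass (adjusted p = 0.0686). Sytl5, a synaptotagmin-like protein that binds Rab27, had its highest mean in SST, 47.0 ± 34.4 CPM, and its lowest in PYC, 3.36 ± 8.46, and was higher in SST (2.69 ± 0.51, adjusted p = 8e-05) and lower in PYC (-4.08 ± 0.76, adjusted p = 1.81e-05). Rab11fip4, an effector of Rab11, was higher in PYC (0.68 ± 0.10) and lower in PV (-0.72 ± 0.11).

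All 3 genes of the list for phosphorylation of Rab proteins were called (22.6% of all genes were). A list of 3 genes is too short to set against that share. Lrrk2, a kinase that phosphorylates a subset of Rabs including Rab8 and Rab10, averaged 137.7 ± 44.0 CPM in PYC, 125.8 ± 55.3 in VIP, 71.0 ± 32.8 in PV and 69.4 ± 29.8 in SST. It was higher in PYC (log2 fold change 0.76 ± 0.15 SE, adjusted p = 6.42e-05) and VIP (0.46 ± 0.15, adjusted p = 0.0396) and lower in PV (-0.51 ± 0.17, adjusted p = 0.0209) and SST (-0.70 ± 0.17, adjusted p = 0.00164). Ppm1h, the phosphatase that reverses this, was higher in VIP (0.52 ± 0.12) and lower in SST (-0.41 ± 0.12). Lrrk1, at 1.46 to 5.97 CPM, was higher in SST (2.42 ± 0.80, adjusted p = 0.0485). Summed pyramidal markers were likewise higher in PYC and VIP than in PV and SST, and their part in these differences was not tested.

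The second question was whether Rab genes differ between mice of 2 and 22 months. No Rab gene passed in any type (edgeR, adjusted p of 0.9996 or more), and no gene of the whole table did either (0% of 12361 to 12761 genes tested per type). At an unadjusted p under 0.05 there were 2 of 42 Rab genes in PYC (2.9% of all genes), 0 of 43 in PV (2.35%), 2 of 45 in SST (2.88%) and 3 of 43 in VIP (3%). DESeq2 and limma-voom gave 0 calls in each type as well. For the abundant genes the intervals were narrow: Rab3a differed by 0.02 ± 0.14 in PYC, -0.18 ± 0.12 in PV, -0.06 ± 0.13 in SST and -0.05 ± 0.18 in VIP (log2 fold change of old against young, ± SE). Rab6b differed by -0.11 ± 0.12, 0.06 ± 0.11, -0.06 ± 0.11 and -0.26 ± 0.14 in the same order. For Rab3b the estimates were 0.08 ± 0.22 in PV and -0.08 ± 0.21 in SST, but -1.15 ± 0.89 in PYC and 1.01 ± 0.73 in VIP, where it is low and the spread wide.

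The age differences with the smallest p-values are given as values, since none passed. In PYC these were Rab5b (log2 0.69 ± 0.28, unadjusted p = 0.0175), Rab26 (0.79 ± 0.35, unadjusted p = 0.0302) and Rab8b (0.56 ± 0.33, unadjusted p = 0.0948), all by edgeR. Rab5b had a median of 58.8 CPM in young PYC (18.6 to 97.4, n = 9) and 89.0 in old PYC (52.3 to 171.4, n = 12), and the groups overlapped. Rab26 had medians of 37.0 (11.1 to 49.5) and 47.8 (22.5 to 92.5). In PV they were Rab27b (0.66 ± 0.33, unadjusted p = 0.0513), Rab10 (-0.58 ± 0.37) and Rab3a (-0.18 ± 0.12), the last being -0.086 without young PV library 3. In SST, Rab24, an atypical Rab linked to autophagy, had a median of 25.2 CPM in the young (11.9 to 59.1) and 7.47 in the old (0.558 to 21.9), a difference of -1.65 ± 0.62 (unadjusted p = 0.0112). The groups overlapped in the range from 11.9 to 21.9 CPM, and 1258 of the 2015 exonic bases of Rab24 overlap Prelid1 on the other strand. Rab33a in SST (2.48 ± 1.19, unadjusted p = 0.0434) was 1.501 without the old library that held 97.1 CPM, and Rab36 in SST was at 0.98 ± 0.59.

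In VIP the smallest p-values were those of Rab27b (log2 1.31 ± 0.60, unadjusted p = 0.0351), Rab31 (1.87 ± 0.90, unadjusted p = 0.0428) and Rab8b (0.92 ± 0.46, unadjusted p = 0.0497), by edgeR. Rab27b had a median of 15.1 CPM in young VIP (0.559 to 50.8, n = 9) and 33.7 in old VIP (14.7 to 65.8, n = 12), with overlap from 14.7 to 50.8 CPM. The 8 SST cell markers summed to 318.5 ± 93.8 CPM in young VIP (190.8 to 449.6) and 575.5 ± 675.7 in old VIP (144.3 to 2135), and all 7 of those tested had a log2 difference above 0, none of which passed. The 2 old VIP libraries with high Sst held Rab27b at 47.3 and 64.6 CPM. Without any 1 library the Rab27b difference ran from 1.139 to 1.676, and its value without both of these is not given. The part of SST cell RNA in this difference was not tested. Rab31, an endosomal Rab that glia also express, had medians of 3.73 (0.264 to 26.1) and 21.2 (0.663 to 65.5). In the same young and old pools astrocyte markers summed to 3521 and 3502 CPM and oligodendrocyte markers to 888.3 and 621 CPM. Oligodendrocyte precursor markers summed to 94.9 and 99.2 CPM and microglia markers to 98.4 and 87.3 CPM. The part of glial RNA in the Rab31 difference was not tested. Rab8b had medians of 27.02 (5.76 to 82.2) and 60.3 (9.50 to 106.3). Over the Rab genes tested, 27 of 42 differences in PYC and 30 of 43 in VIP were above 0, with medians of 0.18 and 0.29 beside 0.003 and 0.019 for all genes. In PV and SST 19 of 43 and 22 of 45 were above 0, with medians of -0.02 and -0.01. Genes in a list are not independent and no test was made of these counts. Depth also differed: median totals were 4.68 M in young and 7.7 M in old PYC, and 5.37 M and 7 M in VIP. In PV they were 7.85 M and 6.44 M, and in SST 9.75 M and 6.13 M. The median differences above come from fits without library total as a covariate, so age and depth are not separated in them. A difference between types in the response to age was tested by the interaction, in which 0 of 46 Rab genes passed (0.169% of all genes did) and 0 reached an unadjusted p under 0.05 (6.64% of all genes did), so no age difference is shown to belong to 1 type.

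**Figure D4:**
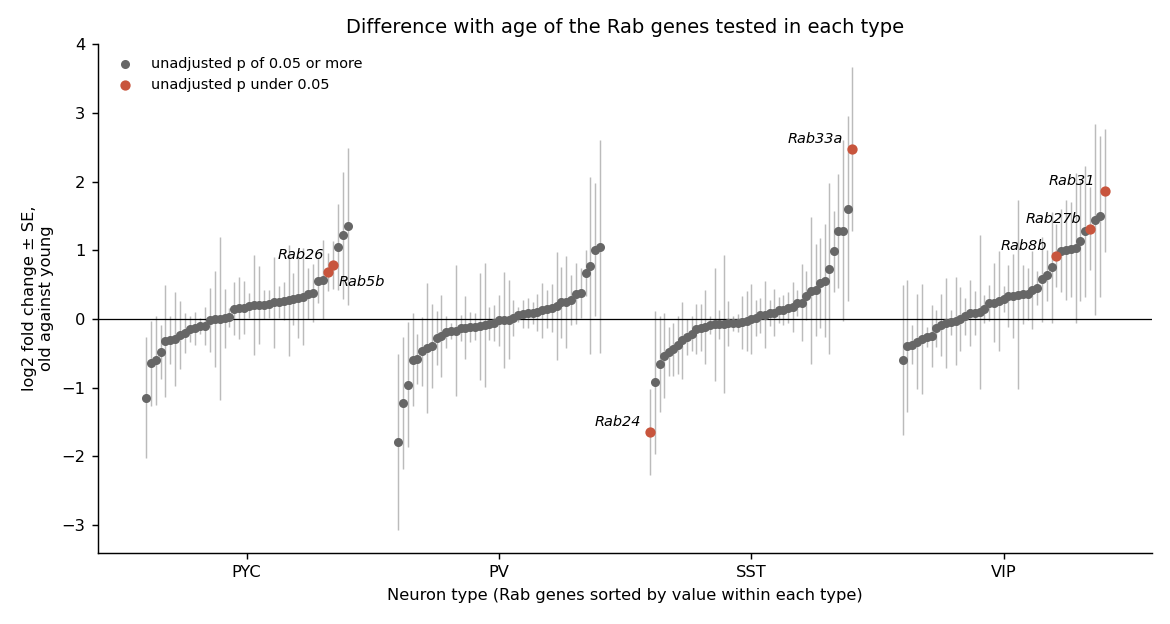
The log2 fold change (± SE) of old against young for each Rab gene tested within a neuron type, sorted by value, with red points where the unadjusted p was under 0.05. Of the 173 values 7 are red, none passed adjustment, and the points of PYC and VIP lie above 0 in 27 of 42 and 30 of 43 cases.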

How the data were processed

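RNA from laser-captured neuron pools was sequenced with a stranded total RNA kit for very small inputs. The deposited table holds raw counts per gene, not normalized. The submitters' processing notes name HISAT2 and GRCm38. How and with which annotation and strand option reads were counted is not stated there, so overlapping genes may share or lose counts. Each library was taken as a separate mouse within its type. CPM were counts over the library total, and CPM per kb divided them by GENCODE exon length.

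The types were compared with edgeR 4.0.16 (R 4.3.3; TMM, robust quasi-likelihood test) in 1 fit of 83 libraries in 8 groups, over 15999 genes with an average log2 CPM of at least 1. Age was tested within each type after filterByExpr with a minimum count of 10. P-values were Benjamini-Hochberg adjusted over all genes tested, with a threshold of 0.05. The scripts were tested on simulated data. Alternatives used DESeq2 1.42.0, limma 3.58.1 (voom), other filters and scalings, and subsets of libraries.

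Named with values were the paralogue families, Rab genes that differed among the types by at least 0.5 on the log2 scale, the 3 smallest p-values per type for age, and up to 3 other genes per list and type. Rims1, Madd, Rab6a, Rab7, Rab1a, Rab4b and Rab40b are also mentioned and were chosen after their values were seen. The members, roles and lists were chosen with earlier results of these data known. Promoter windows came from RefSeq.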

Additional observations from a re-analysis of the deposited data

Results flagged for a closer look

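Single libraries stood apart from the rest of their group in 10 of 96 young groups, over 24 named Rab genes and 4 types. A library was named where its gap to the next one, as a share of the group's range, was above Dixon's critical value. For normally distributed values chance gives about 1 in 20. Several flagged groups had a median of 0 CPM, and the groups of different genes share libraries. The count of 10 in 96 can therefore not be set against that rate. Only groups of at most 10 libraries were examined, so no old group was.

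Young PYC library 2, with 0.215% mitochondrial counts, held the highest Rab3a (584.7 CPM, next 442.3), Rab11b (187.7, next 100.3) and Rab31 (42.95, next 10.64) of its group. Young VIP library 3, with 0.873% mitochondrial counts, held the highest Rab3d, 73.63 CPM with the next at 34.64. Other PYC libraries were number 1 for Rab27a (4.642 CPM, next 2.049) and number 8 for Rab37 (4.483, next 0.4392). In young PV these were number 7 for Rab26 (47.39 CPM, next 21.82), number 8 for Rab3d (10.93, next 3.678) and number 6 for Rab8a (47.61, next 24.32). In young VIP, library 6 held Rab37 at 17.25 CPM with the next at 6.736.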

How the results depend on the processing

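No paired analysis was possible because the replicate numbers follow the order of the samples and the labels tie no library to a mouse. The log2 fold changes of Rab genes called in a type kept their sign under every alternative. Whether the median age differences kept theirs is not given. Without a filter on low values 18 Rab genes differed among the types (10 in the main analysis), the added ones being mostly those with few counts. Vesicle release genes called fell from 7 to 4 in young libraries alone. Genes of other roles (3) numbered 5 with filterByExpr, 10 with no filter and 5 with limma-voom. PYC calls (8) were 5 in old and 3 in young libraries alone, and PV calls (8) were 2 in young ones. SST calls (3) were 5 with no filter and 5 with limma-voom, and VIP calls (5) were 3 with limma-voom and 3 in old libraries alone, where Rab3a and Rab6b were shared with the 5 and Rab29 was gained. Calls for age, 0 in every type, were 1 in PYC, 2 in PV, 3 in SST and 3 in VIP with no filter, and 1 in VIP (Rab38) when filtered by average level. Rab38 had no count in 20 of 21 VIP libraries, and its highest value there was 48.6 CPM. The shares of all genes called for age under these settings are not given, so the counts have no background beside them. Leaving out any 1 library gave 0 to 0 calls for age. The interaction gave 1 with filterByExpr, Rab29, which had no count in 68 of 83 libraries. Other genes of the Rab cycle (29) were 15 in old and 9 in young libraries alone. Fewer libraries enter the age-restricted fits. Alternatives for low mitochondrial counts and high Sst were chosen after seeing the data.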
